A study of Mus musculus with 7 samples.

Results

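Smooth muscle contractile genes were followed through the cell classes of mouse mammary tumors. The 10 genes were Acta2, Tagln, Myl9, Mylk, Cnn1, Tpm1, Tpm2, Myh11, Cald1 and Actg2, chosen by symbol from 33710 genes in 7 single-cell matrices, and all 10 had rows in the matrices. Smooth muscle cells shorten when calmodulin and myosin light chain kinase activate smooth muscle myosin, which then pulls on filaments of smooth muscle actin carrying tropomyosin, caldesmon and calponin. In the mammary gland the same genes are classically made by myoepithelial cells, the basal layer that squeezes milk out under oxytocin, by the pericytes and smooth muscle of vessels, and by activated fibroblasts. Actin and myosin genes also have non-muscle paralogs that are made by nearly every cell.

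The tumors came from 7 control mice of the genotype MMTV-PyMT; HK2 f/f, in a study of the metabolic enzyme hexokinase 2 (HK2) in breast cancer metastasis, and each tumor was 1 Drop-seq library of the whole cell suspension. The MMTV promoter drives the polyoma middle T oncogene (PyMT) in mammary epithelium. Both copies of HK2 were floxed, and according to the methods these mice were on a C57BL/6 background and received the same tamoxifen as the deleted mice. The labels put sampling 3 months after a palpable tumor and call the genotype wild type. The mice carry the numbers of their titles (1, 2, 3 and 4 with CB in the title; 5, 7 and 8 with WT). Mice with HK2 deletion were not analysed here, so all comparisons are between cell classes of the same tumors.

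Barcodes with 200 to 6000 detected genes were kept as cells, 15047 in all. UMIs, the counts of distinct mRNA molecules, summed to between 962677 and 4471473 per mouse, with a median of 527 to 694 UMIs per cell. Only 5 pairs of barcodes were shared between libraries. Cells were sorted into classes by summed UMIs of marker genes, none of which was a contractile gene. The classes held 3206 tumor cells, 1179 hormone-sensing luminal cells, 362 myoepithelial cells (at least 2 UMIs of Krt14, Krt5 and 1500015O10Rik), 859 fibroblasts, 97 endothelial cells, 2230 macrophages, 1985 T or NK cells and 26 pericytes, while 732 cells passed more than 1 gate and 4371 passed none. The tumor gate asked for at least 2 UMIs of PyMT, Epcam, Krt8 and Krt18 together, at least 1 of them PyMT. An epithelial marker was thus not required. A cell past the tumor gate and 1 other gate stayed in the other class, so the other classes could hold cells with PyMT transcript. UMIs were summed over all cells of 1 class in 1 mouse, so that the mouse is the replicate, and a level is a gene's UMIs in that sum per 1000000 UMIs (CPM).

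Genes outside the gate gave the myoepithelial class a mixed profile. Krt14, at 1323 CPM over the pooled mice, is a gate gene and is no check of it. The class held the luminal keratins Krt8 and Krt18 at 1787 and 2635 CPM, close to the 1701 and 2149 CPM of tumor cells, and PyMT transcript at 1105 CPM. Among markers of basal identity, Trp63 was 6.10 CPM, beside 5.15 CPM in tumor cells and 3.50 CPM in hormone-sensing cells. The oxytocin receptor Oxtr was 9.76 CPM, beside 2.69 and 0.388 CPM in the same classes, the last of these being fewer than 3 UMIs. The class is therefore the set of cells past the myoepithelial gate, and its name is kept in that sense.

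Acta2 (smooth muscle alpha actin, chr19:34241090-34255590, minus strand, GRCm38) and Myl9 (regulatory light chain, chr2:156775420-156781658, plus strand) are shown with their promoters, the only 2 of the promoters given for these genes that held a CArG box in a strict or a loose form. Acta2 held the loose form alone. A CArG box is the site of serum response factor, the factor that drives smooth muscle genes with its coactivators. Promoters of 300 bases, from 250 bases before to 50 after the start, were taken from RefSeq with the build GRCm38.p6. The box was searched by name on both strands as CC, 6 bases of A or T, and GG, and in a loose form that allows 1 other base among the 6. The 2 promoters that held a box are shown with the boxes in capitals.
Acta2, chr19:34255324-34255623, minus strand: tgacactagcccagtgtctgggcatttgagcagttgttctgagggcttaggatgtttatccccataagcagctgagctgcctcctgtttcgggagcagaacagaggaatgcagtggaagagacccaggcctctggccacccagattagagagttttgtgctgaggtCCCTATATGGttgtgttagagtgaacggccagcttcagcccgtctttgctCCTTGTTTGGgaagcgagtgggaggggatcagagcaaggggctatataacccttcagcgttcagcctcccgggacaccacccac
Myl9, chr2:156775214-156775513, plus strand: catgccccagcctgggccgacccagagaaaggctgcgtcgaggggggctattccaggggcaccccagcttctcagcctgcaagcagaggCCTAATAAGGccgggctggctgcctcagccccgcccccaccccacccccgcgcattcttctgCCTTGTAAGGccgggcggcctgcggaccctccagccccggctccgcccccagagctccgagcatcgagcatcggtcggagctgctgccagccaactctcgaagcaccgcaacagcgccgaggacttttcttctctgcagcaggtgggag
In the Acta2 promoter the loose boxes CCCTATATGG and CCTTGTTTGG lay at -84 to -75 and -34 to -25 from the start. In the Myl9 promoter the strict box CCTAATAAGG lay at -161 to -152 and the loose box CCTTGTAAGG at -99 to -90. Of 32851 promoter windows of this length, 535 (1.63%) held a strict box and 3280 (9.98%) held a loose one. Windows were given for 7 of the 10 genes. Those of Mylk, Cnn1, Tpm1, Tpm2 and Cald1 held neither form, which says only that these letters are not in these windows. Promoters of Tagln, Myh11 and Actg2 are not shown.

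The thin filament begins with Acta2. In the myoepithelial class Acta2 was 399, 0, 0, 699, 832, 25.3 and 742 CPM in mice 1, 2, 3, 4, 5, 7 and 8. Mice 4, 5 and 8 were highest and mice 2 and 3 had no UMI, where 0 of 65046 and 0 of 153052 UMIs allow up to 46.1 and 19.6 CPM (3 counts; counting error only). In tumor cells of the same mice Acta2 was 20.8, 7.10, 13.7, 17.5, 16.3, 13.6 and 67.8 CPM, so the classes overlapped over mice. In fibroblasts it was 358, 50.2, 272, 289, 40.2, 105 and 173 CPM, and every mouse held it there, mouse 5 with 1 UMI. Hormone-sensing cells ranged from 0 to 10.3 CPM, macrophages from 0 to 35.5 CPM and T/NK cells from 0 to 113 CPM, the last of these being 1 UMI among the 19 T/NK cells of mouse 8. Endothelial cells had 0 of 73527 UMIs over the pooled mice.

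In an edgeR quasi-likelihood fit of 15116 genes, with the mouse as a block, Acta2 was higher in the myoepithelial class than in tumor cells by 3.57 on the log2 scale (SE 0.36, adjusted p = 2.8e-14). It was higher than in hormone-sensing cells by 5.07 (SE 0.46, adjusted p = 3.2e-17 by edgeR). The difference from fibroblasts was 0.39 (SE 0.34, adjusted p = 0.55 by edgeR). Taken over mice alone, the myoepithelial level exceeded the tumor level in 5 of 7 mice, with a mean difference of 1.77 ± 3.89 (SD) in log2(CPM + 1), and an exact two-sided sign-flip permutation test gave p = 0.25, where the smallest possible p is 0.0156. With 1 mouse left out the mean difference ran from 1.14 without mouse 5 (exact permutation p = 0.44) to 2.71 without mouse 3 (exact permutation p = 0.094). Within title series the mean difference was 0.64 in the 4 CB mice (exact permutation p = 0.75, 2 of 4 higher) and 3.29 in the 3 WT mice (exact permutation p = 0.25, 3 of 3 higher, the smallest p that 3 mice allow). The values depended on the CPM added before the logarithm. With 10 CPM added, the mean difference was 2.18 over the 7 mice (exact permutation p = 0.109). It was then 1.60 in the CB mice (exact permutation p = 0.5) and 2.95 in the WT mice (exact permutation p = 0.25).

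Among cells, 13.3% of the 362 myoepithelial cells held at least 1 Acta2 UMI (95% interval 9.94 to 17.2, exact binomial, counting error only), at a median depth of 1384.5 UMIs per cell. The share was 5.70% in fibroblasts (median 565 UMIs), 1.87% in tumor cells (median 901), 1.53% in hormone-sensing cells (median 1280) and 0.705% in T/NK cells (median 446), which should lack smooth muscle actin. After each cell was thinned to 300 UMIs the shares were 6.84, 2.90, 0.855, 0.438 and 0.362% in the same order. Thinning left out 11 myoepithelial, 100 fibroblast, 165 tumor, 37 hormone-sensing and 326 T/NK cells as too shallow.

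**Figure D1:**
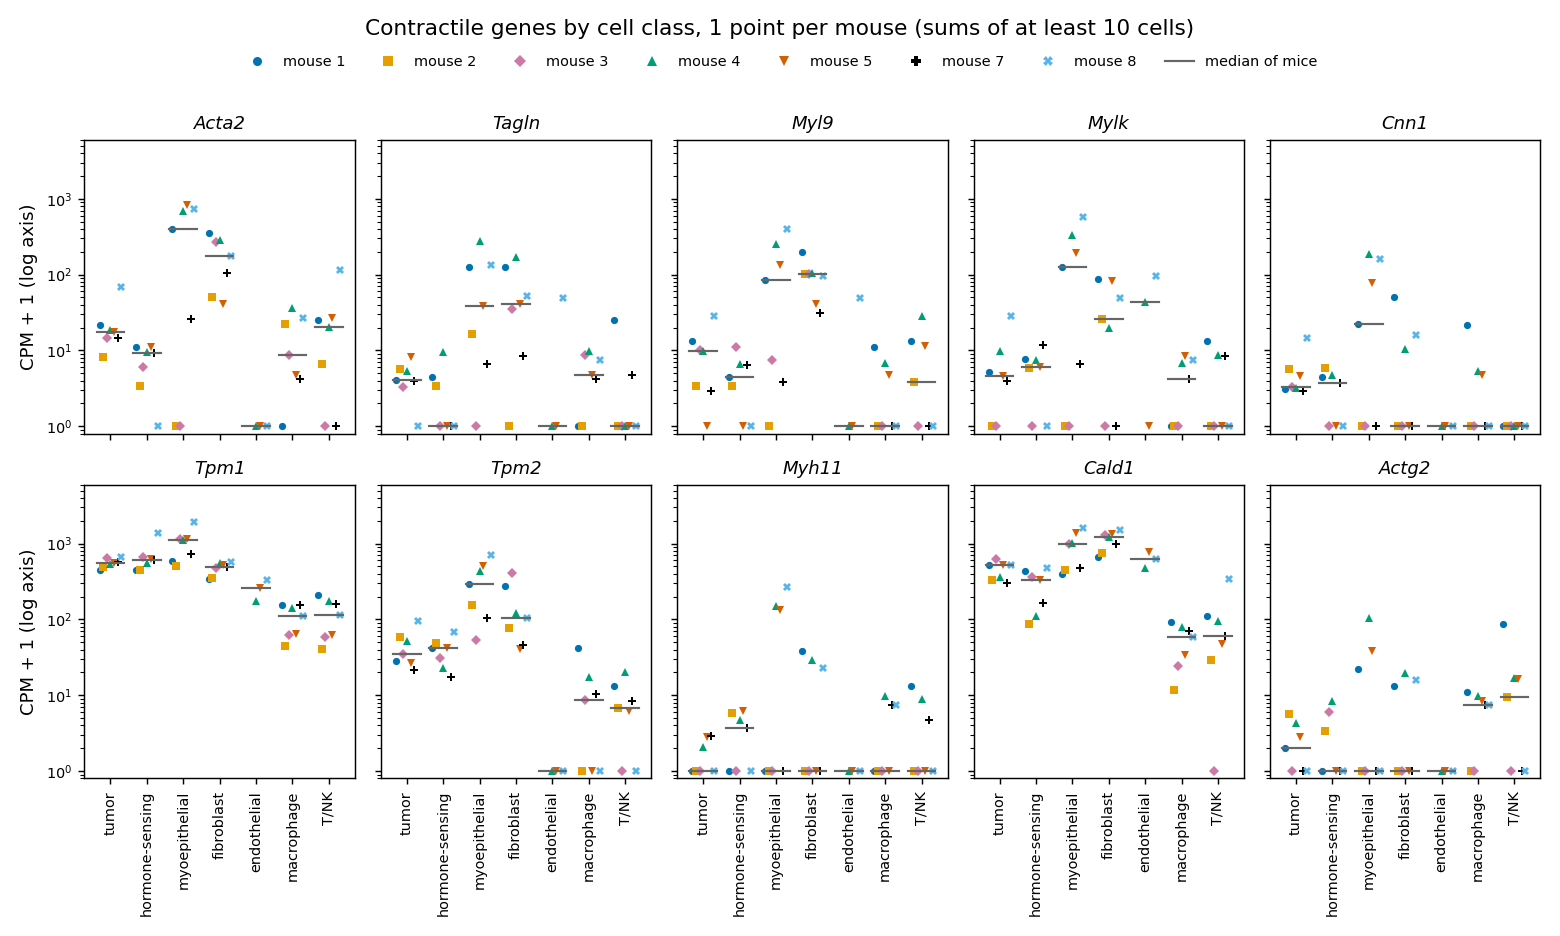
Level of each contractile gene by cell class. The y axis is CPM + 1 on a log axis, the x axis is the class, each point is 1 mouse with a sum of at least 10 cells, and the grey line is the median of the mice. In the myoepithelial class Acta2 spreads from 0 to 832 CPM between mice and Cnn1 from 0 to 186 CPM, while Tpm1 and Cald1 were present in every epithelial and fibroblast sum.

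Actg2 (smooth muscle gamma actin, chr6:83512905-83536265, minus strand) was the scarcest of the genes, with 108 UMIs over all cells. In the myoepithelial class it was 21.01, 0, 0, 102, 37.8, 0 and 0 CPM by mouse, against 0 to 4.73 CPM in tumor cells. The edgeR difference from tumor cells was 3.39 (SE 0.67, adjusted p = 0.00021), but it rested on 14 UMIs, 11 of them in mouse 4, and without mouse 4 the adjusted p was 0.52. Actg2 was the only one of the 10 genes called lower by edgeR in tumor or hormone-sensing cells than in T/NK cells. T/NK cells held 85.1, 8.55, 0, 15.6, 15.5, 0 and 0 CPM, and the edgeR difference was -3.16 for tumor cells (SE 0.64, adjusted p = 2.3e-05) and -2.51 for hormone-sensing cells (SE 0.65, adjusted p = 0.0011). The high value of mouse 1 was 7 UMIs, and without that mouse the adjusted p became 0.019 for tumor cells and 0.097 for hormone-sensing cells.

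Tropomyosin and the actin-binding proteins divided into broad and restricted genes. Counts were per gene and do not tell transcript forms of a gene apart. Tpm1 (alpha tropomyosin, chr9:67022590-67049406, minus strand) was 588, 507, 1137, 1127, 1153, 735 and 1908 CPM in the myoepithelial class and 449 to 658 CPM in tumor cells. It was higher in the myoepithelial class than in tumor cells in 7 of 7 mice, yet the edgeR difference of 0.53 (SE 0.22) did not pass (adjusted p = 0.28). It passed with library sizes alone (edgeR adjusted p = 0.0066), with a stricter count filter (0.042) and with only these classes in the fit (0.031). Tpm1 was far lower in T/NK cells, at 39.9 to 207 CPM, and did not overlap with tumor or hormone-sensing cells. The edgeR differences from T/NK cells were 2.18 (SE 0.26, adjusted p = 4.4e-12) for tumor and 2.22 (SE 0.27, adjusted p = 3.4e-12) for hormone-sensing cells.

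Tpm2 (beta tropomyosin, chr4:43514711-43523765, minus strand) was 294, 154, 52.3, 428, 510.4, 104 and 715 CPM in the myoepithelial class, where every mouse held UMIs. Tumor cells held 27.05, 56.8, 34.2, 50.3, 25.3, 20.4 and 94.98 CPM, lower than the myoepithelial class in 7 of 7 mice although mouse 3 lay within the tumor range. The edgeR difference was 2.53 (SE 0.28, adjusted p = 3.7e-12). Of the 10 genes, Tpm1 and Tpm2 were the only ones higher in the myoepithelial class than in tumor cells in all 7 mice.

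Cald1 (caldesmon, which restrains actin-activated myosin, chr6:34598500-34775473, plus strand) had, among the classes of a single gate, its highest median over mice in fibroblasts, at 666, 753, 1290.1, 1203, 1327, 974 and 1501 CPM. The myoepithelial class held 399 to 1616 CPM and tumor cells 302 to 619.8 CPM. Fibroblasts lay above T/NK cells in every mouse without overlap, by 3.74 (SE 0.31, adjusted p = 1.9e-20 by edgeR). The myoepithelial class differed from fibroblasts by -0.51 (SE 0.25, adjusted p = 0.20 by edgeR) and from tumor cells by 0.64 (SE 0.24, adjusted p = 0.20 by edgeR). The second passed with library sizes alone (edgeR adjusted p = 0.0077), with only these classes in the fit (0.0056) and when every cell past the myoepithelial gate was counted (0.032, an unplanned setting). Cald1 was also the only contractile gene past the test in endothelial cells, at 475, 766 and 617 CPM in mice 4, 5 and 8, the only mice with 10 or more such cells. It exceeded T/NK cells by 1.82 (SE 0.47, adjusted p = 0.0036 by edgeR), and no call remained when mouse 5 was left out.

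Cnn1 (calponin 1, chr9:22099216-22109630, plus strand) was 21.01, 0, 0, 186, 75.6, 0 and 159 CPM in the myoepithelial class and 1.94 to 13.6 CPM in tumor cells, and 4 of 7 mice were higher in the myoepithelial class. The edgeR difference was 3.55 (SE 0.55, adjusted p = 7.6e-07), and 0.058 without mouse 4. T/NK cells had no Cnn1 UMI, so fibroblasts at 13.1 CPM pooled were at least 5.13-fold higher, with 3 counts over the group as the floor. The fibroblast value was 9 UMIs, 4 in mouse 1, 1 in mouse 4 and 4 in mouse 8, and without mouse 1 the bound was 3.00-fold. Tagln (transgelin, chr9:45929619-45936058, minus strand) was 126, 15.4, 0, 279, 37.8, 5.61 and 132 CPM in the myoepithelial class and 123, 0, 33.95, 168, 40.2, 7.49 and 51.6 CPM in fibroblasts. Mice 1 and 4 were high in both classes, and the classes overlapped. The difference between them was 0.09 (SE 0.37, adjusted p = 0.96 by edgeR), while the myoepithelial class exceeded tumor cells by 3.82 (SE 0.48, adjusted p = 6.8e-10 by edgeR). Exons of Tagln overlap Pcsk7 and Gm48529 on the other strand, and whether counting used strand is not given in the sources used here.

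On the motor side, Mylk (myosin light chain kinase, chr16:34745210-35002420, plus strand) was 126, 0, 0, 335, 189, 5.61 and 583 CPM in the myoepithelial class. Fibroblasts held 86.3, 25.1, 0, 18.7, 80.5, 0 and 47.9 CPM and tumor cells 0 to 27.1 CPM. Mylk differed from tumor cells by 4.32 (SE 0.43, adjusted p = 2.8e-14 by edgeR). It also differed from fibroblasts, by 2.03 (SE 0.46, adjusted p = 0.00037 by edgeR), with 5 of 7 mice higher. Exons of Mylk overlap E130310I04Rik and Gm21691 on the other strand.

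Myh11 (smooth muscle myosin heavy chain, chr16:14194535-14291372, minus strand) was detected in the myoepithelial class in mice 4, 5 and 8 alone, at 149, 132 and 265 CPM, and was 0 in mice 1, 2, 3 and 7. Tumor cells held 0 to 1.94 CPM. The edgeR difference of 4.93 (SE 0.62, adjusted p = 9.2e-10) therefore came from 3 of 7 mice. Myl9 was 84.0, 0, 6.53, 251, 132, 2.81 and 397 CPM in the myoepithelial class against 0 to 27.1 CPM in tumor cells, a difference of 3.37 (SE 0.43, adjusted p = 8.3e-10 by edgeR). In fibroblasts Myl9 was 197, 100.4, 102, 103, 40.2, 30.0 and 95.9 CPM, present in every mouse and not overlapping with T/NK cells, which held 0 to 27.4 CPM. The fibroblast level of mouse 5 was 1 UMI, and without that UMI neither statement would hold.

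Counted together, 8 of the 10 genes were higher in the myoepithelial class than in tumor cells and 0 were lower. Of all 15116 genes tested 1.47% were higher and 0.794% lower, and the median log2 difference was 3.47 over the 10 genes and -0.22 over all genes. Against hormone-sensing cells 9 of 10 were higher and 0 lower (all genes, 2.71% and 3.1%), with medians of 3.86 and -0.17. Against fibroblasts 5 of 10 were higher, Mylk, Cnn1, Tpm1, Tpm2 and Myh11, and 0 were lower (all genes, 4.69% and 8.02%), with medians of 0.91 and -0.02. The last count fell to 2 when mouse 4, 5 or 8 was left out, to 2 with DESeq2, and to 1 without the mouse as a block. Of all genes called against tumor cells 64.9% were higher, and 79.8% with library sizes alone and 15.6% with DESeq2. Against hormone-sensing cells 46.6% were higher, and 30.0% with DESeq2, and against fibroblasts 36.9%, and 50.6% with library sizes alone. Within the title series, 8 were called against tumor cells in the CB mice and 5 in the WT mice, and against fibroblasts 1 and 3. In CB mice 2 and 3 the myoepithelial class held no UMI of Acta2, Mylk, Cnn1, Myh11 or Actg2. Calls of these genes in the CB mice therefore came from mice 1 and 4, and of Myh11 from mouse 4 alone. The CB count does not show agreement between those mice. Over all genes, 160 were higher and 68 lower than in tumor cells in the CB mice (13632 tested). In the WT mice 50 were higher and 30 lower (12131 tested). Against fibroblasts the counts over all genes were 303 and 535 in the CB mice and 372 and 778 in the WT mice. Against tumor cells DESeq2 called 4 (all genes, 99 higher and 536 lower of 15116 fitted), with no adjusted p for the other 4 called by edgeR (Tagln, Cnn1, Myh11 and Actg2).

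**Figure D2:**
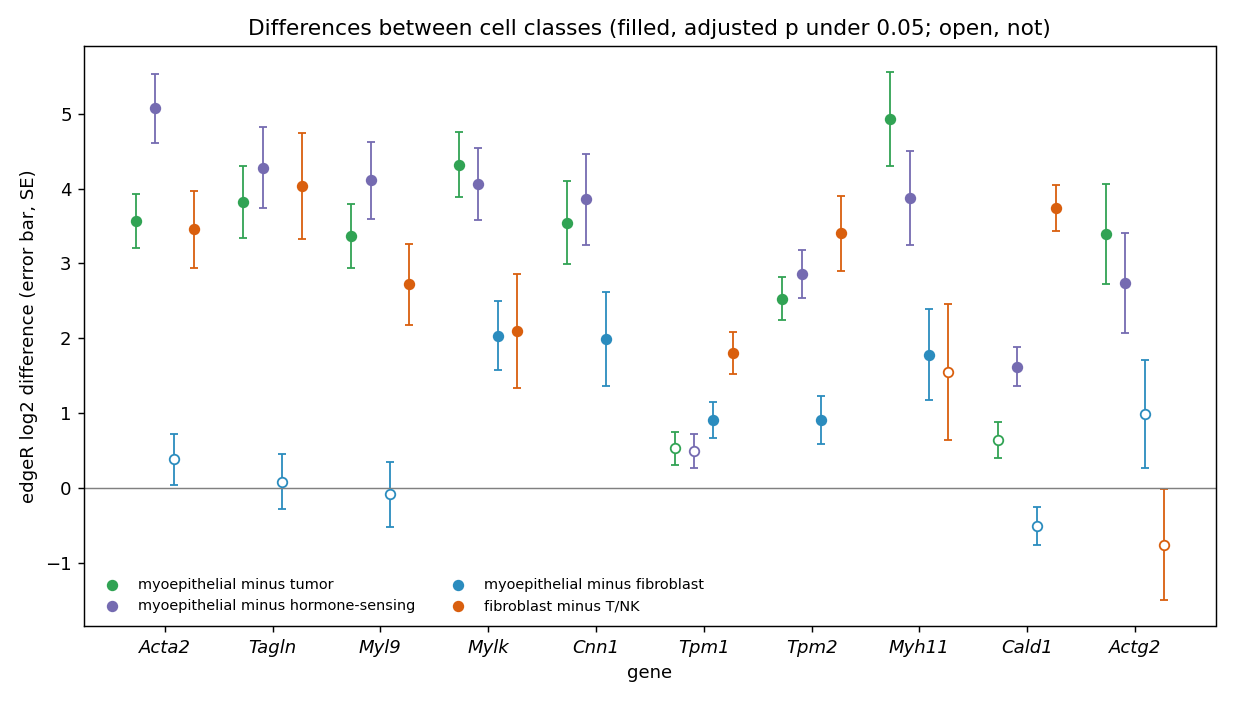
Differences between classes by edgeR. The y axis is the log2 difference with its SE, the x axis is the gene, filled points passed an adjusted p of 0.05 and open points did not. The points of the myoepithelial class against tumor and hormone-sensing cells lie between 2.53 and 5.07 for 8 of the genes (Actg2 included), while Tpm1 and Cald1 lie between 0.49 and 1.62. Cnn1 is left out of the fibroblast and T/NK comparison, where T/NK cells had no UMI.

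T/NK cells gave the background for the other classes. Fibroblasts were higher than T/NK cells for 8 of 10 genes and lower for 0 (all genes, 13.6% and 14.4%), all but Myh11 and Actg2, with medians of 3.06 over the 10 genes and -0.18 over all. With Cnn1 at its lower bound the median was 2.54, and the Cnn1 call was lost without mouse 1 (edgeR adjusted p = 0.056). Tumor cells were higher for 3, Tpm1, Tpm2 and Cald1, and lower for Actg2 (all genes, 18.1% and 16.5%). Hormone-sensing cells were higher for the same 3 and lower for Actg2 (16.9% and 16.7%). Endothelial cells were higher for Cald1 alone (2.9% and 7.69%). Macrophages showed 0 calls by edgeR (12% and 9.37%), where Cnn1 was the only member with an unadjusted p under 0.05, and 0 by DESeq2. Scaling changed some of these all-gene shares. Of the genes called in endothelial cells 27.4% were higher, and 69.9% with library sizes alone, which moved the median of all genes by 0.79 on the log2 scale. In hormone-sensing cells the share went from 50.4% to 61.7% (median moved by 0.20, and 61.8% with DESeq2) and in macrophages from 56.1% to 40.4% (median moved by -0.19). In tumor cells it went from 52.2% to 58.6% with library sizes alone and 66.9% with DESeq2. The comparisons with T/NK cells share those cells and are not independent of each other.

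Where the UMIs lay was described over the 7 mice pooled, with no test. Cells past both the myoepithelial and the fibroblast gates numbered 78 and held 1.04% of all UMIs. They held 40.9% of the Cnn1 UMIs, 33.7% of Mylk, 29.7% of Myh11, 24.9% of Tagln, 24.2% of Acta2 and 22.5% of Myl9. Cells past the myoepithelial gate alone held 5.15% of all UMIs and 14.4 to 22.3% of the UMIs of these 6 genes. Here and below these are the 362 cells of the myoepithelial class, which may also have passed the tumor gate. Tumor cells held 29.7% of the Tpm1 and 30.0% of the Cald1 UMIs, beside 28.1% of all UMIs.

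**Figure D3:**
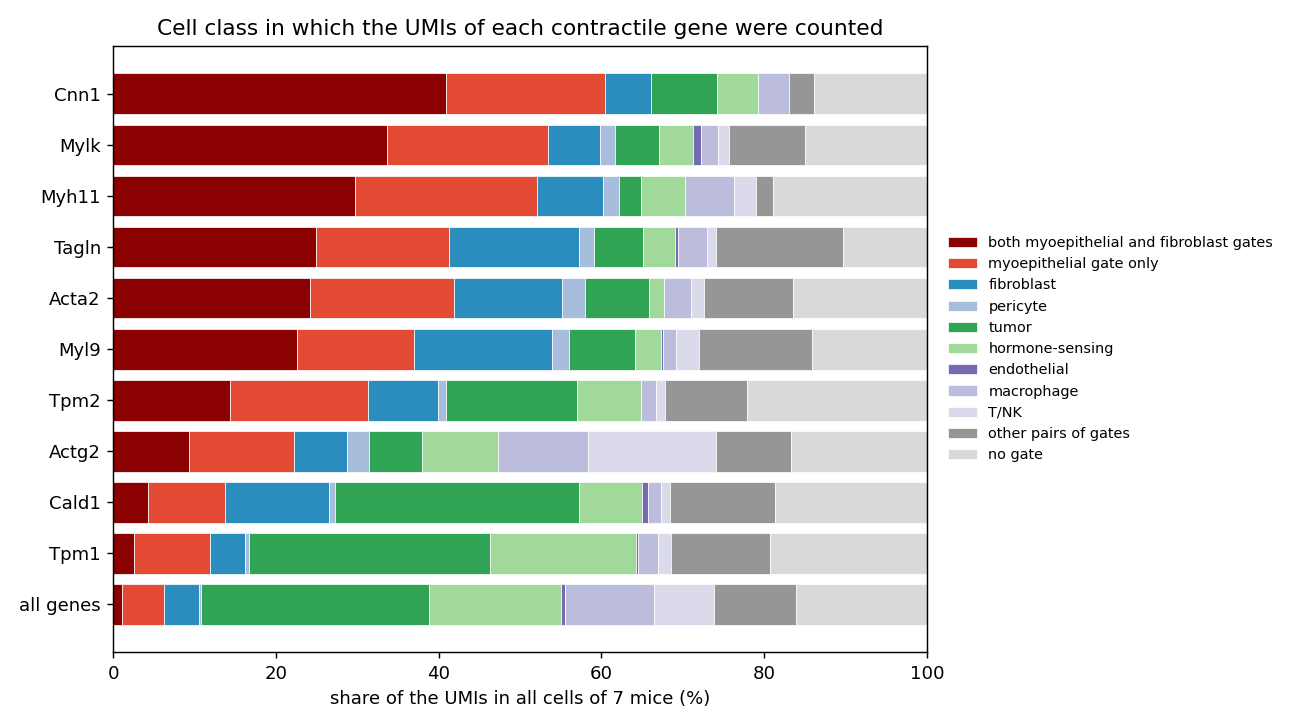
Cell class in which the UMIs of each contractile gene were counted. The x axis is the share of the gene's UMIs in all cells of the 7 mice, each bar is 1 gene, and the lowest bar is all genes. Cells past both the myoepithelial and fibroblast gates hold 40.9% of the Cnn1 UMIs and 1.04% of all UMIs.

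The 78 cells past both gates were in mice 1, 2, 3, 4, 5, 7 and 8 in numbers of 18, 1, 1, 21, 5, 11 and 21. Their Acta2 level was 3615, 243, 0, 2111, 2253, 0 and 489 CPM, higher than in the cells past the myoepithelial gate alone in mice 1, 2, 4 and 5 and lower in mice 7 and 8, where those held 25.3 and 742 CPM. Mice 2, 3 and 5 had under the 10 cells asked of a sum elsewhere, and the value of mouse 2 was 1 UMI. Among mice with at least 10 such cells, Acta2 was higher in mice 1 and 4 and lower in mice 7 and 8. Mylk in the cells past both gates was 1763, 0, 0, 779, 779.8, 400.0 and 471 CPM, higher in mice 1, 4, 5 and 7 and lower in mouse 8, where cells past the myoepithelial gate alone held 583 CPM. At least 3 of the 6 restricted genes (Acta2, Tagln, Myl9, Mylk, Cnn1 and Myh11, a group set after their values were seen) were found in 31 of the 78 cells, or 39.7% (exact interval 28.8 to 51.5, counting error only), against 25 of 362 cells (6.91%) past the myoepithelial gate alone, 13 of 859 fibroblasts (1.51%) and 0 of 1985 T/NK cells. After thinning to 300 UMIs the counts were 13 of 78 (16.7%), 10 of 351 (2.85%), 5 of 759 (0.659%) and 0 of 1659 in the same order. The 6 genes were picked as low in tumor, hormone-sensing and immune cells, so the T/NK count follows in part from that choice. Actg2 was left out of the group, and 15 of 1985 T/NK cells held it. Tpm2 was left out by name, and 10 of 1985 T/NK cells held it. Its level over the pooled mice was 35.8 CPM in tumor and 9.37 CPM in T/NK cells. The mice gave unequal numbers of cells to these sets, mice 2, 3 and 7 giving 1, 1 and 11 of the 78 cells but 31, 56 and 102 of the 362. By mouse and without thinning, past both gates and past the myoepithelial gate alone, the counts were 15 of 18 and 3 of 34 cells in mouse 1, 9 of 21 and 13 of 84 in mouse 4, and 3 of 5 and 5 of 29 in mouse 5. In mouse 8 they were 4 of 21 (19.0%) and 4 of 26 (15.4%), and in mice 2, 3 and 7 no cell of either set held 3 of these genes.

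Their median depth was 1442 UMIs per cell, against 1384.5 past the myoepithelial gate alone and 565 in fibroblasts. Over the pooled mice they also held Trp63 at 66.5 CPM, Oxtr at 115 CPM and the smooth muscle leiomodin Lmod1 at 230 CPM, against 6.10, 9.76 and 43.9 CPM past the myoepithelial gate alone. The sums were 165507 and 819987 UMIs, so Trp63 and Oxtr rest on few UMIs, and the mice entered these sums unequally. Collagen Col1a2, a gate gene, was 6175 CPM in the cells past both gates and 12685 CPM in fibroblasts, and Krt14 was 296 CPM against 1323 CPM past the myoepithelial gate alone. No doublet caller was run, and the part of doublets in these cells was not tested.

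When every cell past the myoepithelial gate was counted, 492 in all, Acta2 was 1206, 10.9, 4.81, 837, 904, 24.8 and 564 CPM. This set was not planned and brings in the 78 cells past both gates, so its larger differences are no separate support. The Acta2 level exceeded that of tumor cells in 6 of 7 mice (mean difference 2.87 ± 2.91 SD in log2(CPM + 1), exact two-sided sign-flip permutation p = 0.0625). The edgeR difference from tumor cells was 4.03, and it was 4.49 for Cnn1, 5.14 for Mylk and 5.63 for Myh11. Mice 2, 3 and 7 were again the lowest.

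The gate gene 1500015O10Rik, whose product is a secreted peptide, divided these cells further, a division made after seeing the data. Cells with it numbered 223, or 25, 10, 9, 95, 17, 33 and 34 by mouse, and the 269 others passed on keratins alone. Acta2 was 2103, 36.9, 0, 1096, 2244, 30.7 and 898 CPM with 1500015O10Rik and 308, 0, 5.59, 66.0, 123, 22.4 and 26.7 CPM with keratins only. In the 6 mice with at least 10 cells of both kinds, Acta2, Tagln and Cald1 were higher with 1500015O10Rik in 6, Myl9 and Mylk in 5, Cnn1, Tpm1, Tpm2 and Myh11 in 4 and Actg2 in 3. Over the pooled mice Acta2 was 788 CPM with it and 45.5 CPM without, or 17.3-fold higher, Mylk was 24.9-fold and Tpm2 4.38-fold higher, and Tpm1 stood at 1.12-fold. Cnn1 had 97 UMIs with it and 2 without. As the division is on a gate gene and followed the values, these are descriptions with no test.

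Of the 395 Acta2 UMIs in cells with 1500015O10Rik, 234 lay in 70 cells past both the myoepithelial and fibroblast gates. Among the cells past the myoepithelial gate alone, 135 held 1500015O10Rik and 227 did not. Acta2 was 655, 0, 0, 905, 2238, 36.3 and 1501 CPM in the first and 325, 0, 0, 74.9, 167, 21.9 and 50.6 CPM in the second, and 614 against 46.6 CPM over the pooled mice. Mylk was 282 against 13.8 CPM pooled, and Cnn1 had 31 UMIs against 0. Mice 1, 4, 5, 7 and 8 were higher with 1500015O10Rik for Acta2 and mice 2 and 3 had no UMI in either. Without the cells past other gates, Tagln and Cald1 were no longer higher in every mouse compared. Over all 7 mice, with 9, 7 and 7 cells with 1500015O10Rik in mice 1, 2 and 3, Tagln was higher in 4 and lower in 2 (0 against 55.7 CPM in mouse 5 and 0 against 7.31 CPM in mouse 7, each 0 against 2 UMIs). Cald1 was higher in 5 and lower in 2 (374 against 406 CPM in mouse 1 and 138 against 534 CPM in mouse 2). Mice 4, 5, 7 and 8 had at least 10 cells of both kinds. In each of them Cald1 was higher with 1500015O10Rik, the closest being 532 against 457 CPM in mouse 7. Tpm2 was higher in 4 and lower in 3, and Tpm1 higher in 3 and lower in 4. Myl9 was higher in 6, Mylk in 5, Cnn1 in 4, and Myh11 and Actg2 in 3, with no mouse lower.

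The share of the gate's cells with 1500015O10Rik was 44.6, 27.03, 13.8, 79.8, 47.2, 25.2 and 70.8% by mouse, lowest in mice 3, 7 and 2. These were also the mice with the least Acta2 in the class, and the part of this share in the Acta2 level of a mouse was not tested. Over the pooled mice, the keratin-only cells held the keratinization genes Asprv1 and Cnfn at 364 and 298 CPM, against 14.0 and 0 CPM with 1500015O10Rik, genes named here after their values were seen. Klk6, Krt16 and Krt10 were also measured and are not given here. Mice 7 and 3 gave 98 and 56 of the 269 keratin-only cells and mouse 4 gave 95 of the 223 others. Whether the difference holds within each mouse was not tested.

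**Figure D4:**
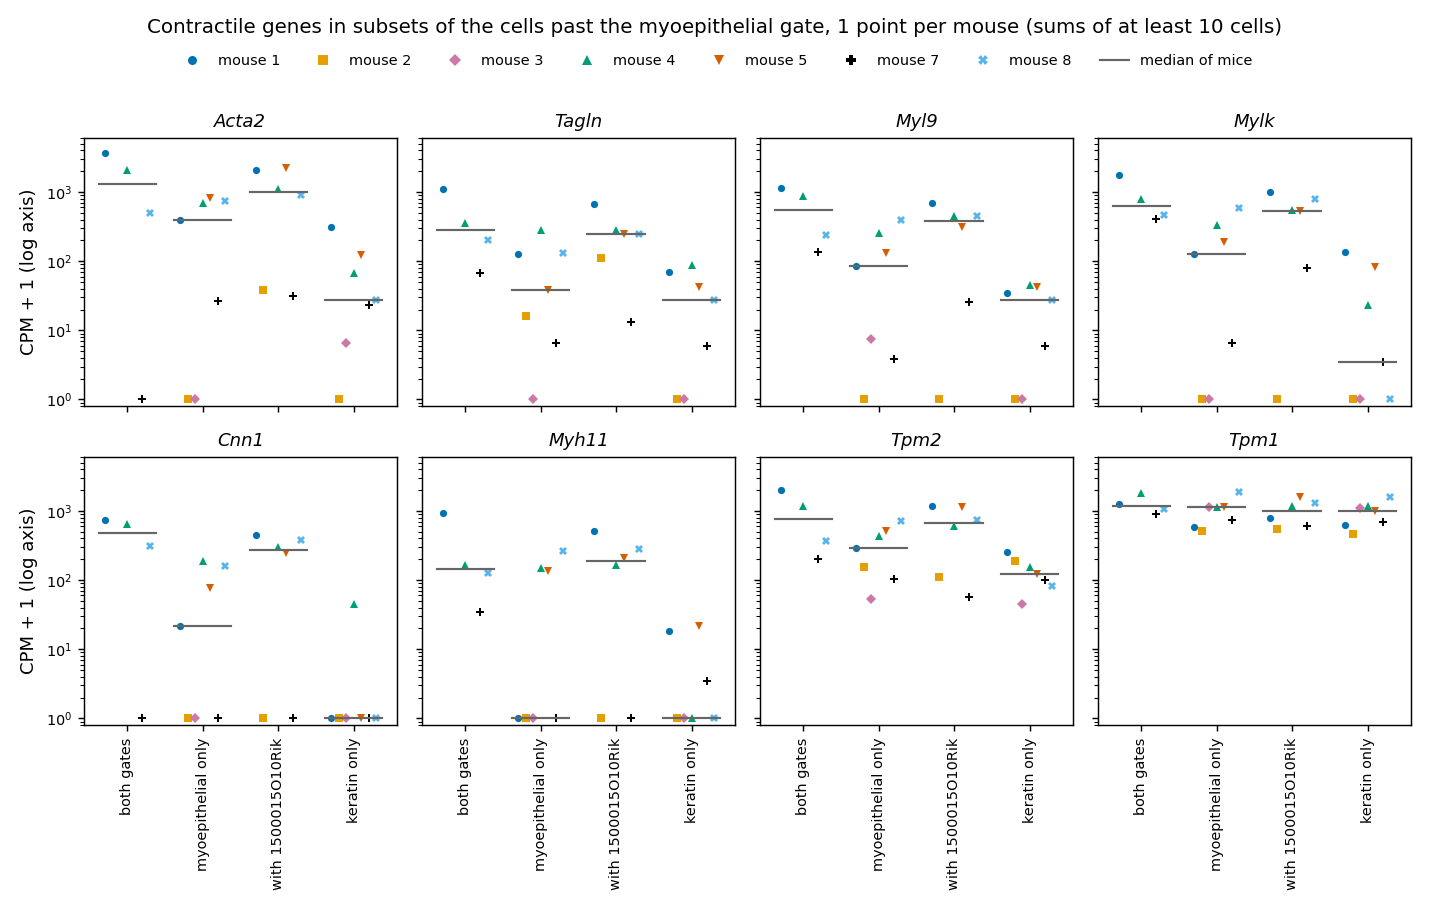
Contractile genes in subsets of the cells past the myoepithelial gate. The y axis is CPM + 1 on a log axis, each point is 1 mouse with a sum of at least 10 cells, and the grey line is the median of the mice. Of the 6 mice with both kinds of cells, Acta2 lies higher with 1500015O10Rik than with keratins only in 6, Mylk in 5 and Cnn1 in 4, while Tpm1 lies higher in 4 and lower in 2.

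The oncogene transcript divided the myoepithelial class by cell. In cells with at least 1 PyMT UMI against those without, 0 of 9 genes tested were called by edgeR (all genes, 0.226% higher and 0.313% lower), and 4 had an unadjusted p under 0.05, all lower with PyMT, beside 294 of 5758 genes at that threshold in either direction. DESeq2 also called 0, with no adjusted p for 4 of the 9. The median difference was -1.06 over the 9 genes and 0.10 over all genes. Acta2 differed by -1.44 (SE 0.40, adjusted p = 0.058 by edgeR) and Tpm2 by -1.05 (SE 0.37, adjusted p = 0.33 by edgeR). The count became 1 with library size alone and up to 2 when mouse 3, 5 or 7 was left out, each time lower with PyMT. Of all genes called, 13 of 31 were higher with PyMT (41.9%), 13 of 43 with library sizes alone (30.2%) and 4 of 5 with DESeq2.

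Pericytes were too few for a test, with 26 cells and at most 6 per mouse. Over the pooled mice they held Acta2 at 592 CPM (exact Poisson interval 390.3 to 862, counting error only), Myl9 at 175 CPM and Mylk at 154 CPM, and Cnn1 at 0 of 45585 UMIs, which allows up to 65.8 CPM. The 27 Acta2 UMIs lay in 9 of the 26 cells, so the interval leaves out the spread between cells and mice. The barcodes with under 200 genes, which were not kept as cells, held Acta2 at 133, 10.98, 16.1, 98.96, 262, 16.5 and 67.1 CPM by mouse, again lowest in mice 2, 3 and 7.

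Other genes of contraction were described by lists. Of 15 smooth muscle accessory genes 12 were tested. Against tumor cells 3 were higher in the myoepithelial class and 0 lower (all genes, 1.47% and 0.794%), the LIM protein Pdlim7 by 1.49 (SE 0.33), filamin Flna by 1.15 (SE 0.29) and Csrp1 by 0.84 (SE 0.23). Against hormone-sensing cells 5 were higher and 0 lower (all genes, 2.71% and 3.1%), among them Oxtr by 3.72 (SE 0.89) and Lmod1 by 2.71 (SE 0.52). The Oxtr level in hormone-sensing cells, 0.388 CPM of 2574014 UMIs, lay under the 3-count floor, so the size of its difference is not well measured. Against fibroblasts 3 were higher and 0 lower (all genes, 4.69% and 8.02%), Pdlim3, Csrp1 and Lmod1, by 2.53, 2.43 and 1.82. The list's median difference from tumor cells was 0.88, against -0.22 over all genes.

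The non-muscle paralogs numbered 12, all tested, and the shares of all genes are those given for the accessory genes. Of these 1 was higher in the myoepithelial class than in tumor cells, calponin 2 (Cnn2) by 1.202 (SE 0.27), 0 were lower, and 0 differed from fibroblasts in either direction by edgeR (1 with an unadjusted p under 0.05, and 1 by DESeq2, Myl12a). Against hormone-sensing cells 1 was higher and 2 lower, Actg1 by -1.11 (SE 0.29) and Myl12b by -1.10 (SE 0.23). In tumor cells against T/NK cells 2 paralogs were higher and 5 lower (all genes, 18.1% and 16.5%). Calponin 3 (Cnn3) was higher by 2.91 (SE 0.34) and the non-muscle myosin heavy chain Myh10 by 2.03 (SE 0.68), and Cnn2 was lower, at -2.95 (SE 0.25), as was Myl12b, at -1.08 (SE 0.21).

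Of 12 regulators, the Srf coactivator Myocd had too few UMIs and 11 were tested. None passed in the myoepithelial class against tumor or hormone-sensing cells (0 of 11 in each by edgeR and by DESeq2, and 0 with an unadjusted p under 0.05 in edgeR). With 1.47% and 0.794% of all genes called against tumor cells, a count of 0 among 11 is near the share of all genes. Against fibroblasts 1 of 11 was higher and 1 lower, near the shares of all genes (4.69% and 8.02%). The phosphatase subunit Ppp1cb was higher by 1.10 (SE 0.29) and the kinase Rock2 differed by -0.997 (SE 0.27). Srf itself, the factor of the CArG box, was at 26.8 CPM in the myoepithelial class and 21.7 CPM in tumor cells over the pooled mice.

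Genes of like pattern were ranked by Pearson r of log2(CPM + 10) over 45 sums of a class in a mouse, among 7285 genes that were neither members nor gate genes. The sums share mice and classes, and r is a description. Closest to Acta2 were Gas1 (r = 0.81), Gpm6b (0.79), Col16a1 (0.78), Igfbp2 (0.78) and Dclk1 (0.76). Closest to the summed level of the 10 genes were Serpine2 (0.88), Fermt2 (0.86), Nedd4 (0.85) and S100a16 (0.83).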

How the data were processed

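UMI counts per gene and cell were deposited by the authors as 1 matrix per tumor, with no normalization. According to the methods, tumors were digested with collagenase and filtered, libraries were made by Drop-seq, and reads were aligned to mm10 with the PyMT sequence added. The submitters' processing notes name STAR, FastQC, hg19 and GRCh37.p13 without saying where each was used, and the counting program and annotation are not given in the sources used here. Mitochondrial genes were left out, with 26 and 27 rows removed from 2 matrices.

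Cells were barcodes with at least 200 and at most 6000 detected genes. Cells were classed by summed UMIs of marker lists (at least 2 UMIs, or 3 for macrophages and fibroblasts), cells past several gates were set aside as mixed, except that a cell past the tumor gate and 1 other went to the other class and the pericyte gate took precedence over the fibroblast gate, and no doublet caller was run. UMIs were summed per class and mouse (at least 10 cells) and tested with edgeR 4.0.16 (quasi-likelihood, TMM, class and mouse as terms, Benjamini-Hochberg, R 4.3.3) over genes with at least 20 UMIs. Classes of 1 mouse are paired because they come from the same tumor, so the mouse is the block. The edgeR p-values rest on 1 estimate of spread per gene, pooled over all classes in the fit after the mouse block. They do not measure the spread of the myoepithelial class alone, which can be larger, so the levels by mouse are given beside them. No 2 libraries agreed within sampling noise (lowest chi-square per degree of freedom 12.8).

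All 10 genes are named, with up to 4 called genes of each pathway list by size of difference and the 5 genes closest in pattern to Acta2 and to the summed genes, of which 1 is not reported here. The genes and lists were chosen with earlier results of these data known. Alternatives were DESeq2 1.42.0, other filters, scaling, gates and cell minimums, no block, and leaving out mice or title series. Python 3.11.15, numpy 2.4.6, scipy 1.17.1, pandas 2.3.3 and matplotlib 3.10.9 were used, with positions from GENCODE M21 on GRCm38. On counts simulated for the myoepithelial and tumor comparison over 13651 genes, edgeR called 0 of 47 genes changed 2-fold, 21 of 45 changed 4-fold, 44 of 49 changed 8-fold and 48 of 48 changed 16-fold, and 8 of 13462 unchanged genes. The simulation drew every class from the tumor profile with 1 fixed spread and no difference between mice. Its rates therefore do not carry over to the real data, where mice differed by more.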

Additional observations from a re-analysis of the deposited data

Results flagged for a closer look

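In 13 of 59 groups of 7 mice, 1 mouse stood apart from the others by Dixon's criterion. Chance alone meets it in about 1 of 20 groups when values are normally distributed. That rate does not apply to CPM of low counts from sums of unequal depth, so the 13 cannot be read as an excess over chance. Most of the flagged values rested on few UMIs.

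Mouse 8 stood apart in 3 genes of tumor cells. Its Acta2 level was 67.8 CPM against 7.10 to 20.8 CPM in the others, Mylk was 27.1 CPM against 0 to 8.76 CPM (4 UMIs), and Cnn1 was 13.6 CPM against 1.94 to 4.73 CPM (2 UMIs). In hormone-sensing cells of mouse 8, Tpm1 was 1392 CPM against 446 to 672 CPM (62 UMIs). In its 19 T/NK cells, Acta2 was 113 CPM against 0 to 25.9 CPM (1 UMI) and Cald1 was 339.6 CPM against 0 to 109 CPM (3 UMIs).

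Mouse 1 stood apart in fibroblasts for Cnn1, at 49.3 CPM against 0 to 14.7 CPM (4 UMIs). In macrophages of mouse 1, Cnn1 was 20.3 CPM against 0 to 4.43 CPM (2 UMIs) and Tpm2 was 40.7 CPM against 0 to 16.3 CPM (4 UMIs). In its T/NK cells, Tagln was 24.3 CPM against 0 to 3.76 CPM (2 UMIs) and Actg2 was 85.1 CPM against 0 to 15.6 CPM (7 UMIs).

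Mouse 4 stood apart for Tagln in hormone-sensing cells, at 8.44 CPM against 0 to 3.40 CPM (9 UMIs), and for Actg2 in the myoepithelial class, at 102 CPM against 0 to 37.8 CPM (11 UMIs).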

How the results depend on the processing

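Of 803 values of the 39 differences called for the contractile genes, recomputed under the alternatives, 747 kept their direction and passed, 56 kept their direction and did not pass, and 0 reversed. Of 180 counts of called genes, 17 moved by more than 1.5 times, and the cause was not tested. Against tumor cells the count of 8 became 4 with DESeq2 and 5 in the WT mice, and 6 to 8 with 1 mouse left out. Against fibroblasts the count of 5 became 2 with DESeq2, 3 with at least 500 genes per cell, 1 in the CB and 3 in the WT mice, and 2 to 5 with 1 mouse left out. Without the mouse as a block, that count was 1. For fibroblasts against T/NK cells 8 became 5 in the WT mice, and for hormone-sensing cells 4 became 2. In the WT mice the calls over all genes fell too, from 4235 to 2094 and from 5077 to 2083 in these comparisons. Between the myoepithelial class and tumor cells they fell from 342 to 80. For endothelial cells the count was 0 to 1 with 1 mouse left out. With PyMT, 0 became 1 with library sizes alone and 0 to 2 with 1 mouse left out. Shares of cells with Acta2 after thinning were 6.84% in the myoepithelial class, 2.90% in fibroblasts, 0.855% in tumor, 0.438% in hormone-sensing, 0.817% in macrophages and 0.362% in T/NK cells.

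Over all genes, the count called between the myoepithelial class and tumor cells was 342, and 80 to 1066 under the alternatives. The highest came from setting aside cells past the tumor gate and another gate, where 266 genes were higher and 800 lower and the contractile genes called remained 8 in number. Library sizes alone moved the median of all genes by 0.17 on the log2 scale against tumor cells and by 0.18 against fibroblasts, by 0.13 between tumor and T/NK cells, 0.11 between fibroblasts and T/NK cells and -0.11 with PyMT. DESeq2 moved it by 1.08 between endothelial and T/NK cells and by 0.10 between tumor and T/NK cells. The pericyte comparison could not be fitted, since no mouse had 10 such cells.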
